A study of Mus musculus with 16 samples.

Results

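Macrophage-dendritic cell progenitors (MDPs) were compared between mice bearing a PyMT-B6 mammary tumor and tumor-free mice, on 4 arrays of each, chosen by their sample titles as 8 of the 16 arrays in the series. All mice were female C57/Bl6. PyMT-B6 is a cell line derived from a mammary tumor of the MMTV-PyMT model, in which a mammary-active viral promoter drives the polyoma middle T oncogene. It was implanted in the mammary fat and grown to a diameter of 1.5 cm, and the control mice received no tumor. MDPs were sorted in 4 independent experiments from lineage-depleted bone marrow (BM), a pair of mice pooled per sample, and each RNA was labeled with Cy5 alone and read on 1 mouse Agilent array. The other 8 arrays hold common dendritic cell progenitors (CDPs) of the same 2 states and are used here only beside the MDP values.

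MDPs are Kit- and Flt3-bearing BM cells that can still become monocytes, macrophages or dendritic cells (DCs). They give rise to CDPs, which have lost the monocyte fate and form plasmacytoid DCs and, through pre-DCs, conventional DCs (cDCs). PU.1 (Spi1) and IRF8 direct this path, while C/EBP factors and granulocyte colony-stimulating factor (GCSF) acting through STAT3 drive the neighboring granulocyte path.

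The sorted cells carried the transcripts that define MDPs. All 10 genes of the MDP-defining list were well above background on all 8 arrays, among them Kit, Flt3, Csf1r, Cx3cr1, Spi1 and Irf8. Levels are given throughout as the log2 of the background-subtracted intensity minus the 75th percentile of the same array, so that 0 is the level of a bright probe and the dimmest probes well above background lay between −5.33 and −5.06 on the 8 arrays. Levels of different probes are not comparable with each other. Between 63.6% and 71.2% of the probes were well above background on tumor-free arrays and between 58.8% and 67.2% on PyMT-B6 arrays, ranges that overlap (two-sided exact permutation p = 0.143). The arrays lay on 4 slides. Slide 1 held tumor-free replicate 3 with PyMT-B6 replicates 2 and 4, slide 2 held tumor-free replicate 2 with PyMT-B6 replicate 3, slide 3 held replicate 5 of both groups, and slide 4 held, of the MDPs, only tumor-free replicate 4. The slide accounted for 97.8% of the first principal component of the 8 arrays, which carried 61.7% of the variance, and the tumor state for 66.4% of the second component, with 11.2%. Changes are therefore given from a fit with the slide as a block, and beside them stand the differences within the 3 slides that held both groups.

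Few transcripts passed the test for a difference between MDPs of tumor-bearing and tumor-free mice. With 100 genes moved by 1 log2 unit in simulated data 59 were called, so a probe not called may still differ. Of 27431 probes tested, 45 passed a false discovery rate (FDR, limma with Benjamini-Hochberg adjustment) under 0.05 with a fold change above 1.5 (0.164%), 16 of them higher (0.0583%) and 29 lower (0.106%) with tumor. The 16 rises ranged from 0.62 to 4.50 and the 29 falls from −0.74 to −4.36 on the log2 scale. Among the rises were the neutrophil granule gene Lcn2 and its neighbor on chromosome 2, 1110008P14Rik, and among the falls was the DC lectin Cd209a. The calls sat close to the threshold, with 28 of the 45 adjusted p-values above 0.04, and 5199 probes had an unadjusted p under 0.05. Within slides 1, 2 and 3 the tumor-bearing sample or mean lay on the side of the fitted change for all 45 of the 45 called probes that the same arrays had selected. The 2 groups of 4 arrays did not overlap for 36 of the 45, against 5.22% of all probes with a value on every MDP array. As the 45 were selected by their difference on these arrays, the selection itself raises this share and it is no separate support. The median change of all tested probes was −0.02. Without the slide as a block 17 probes were called, 15 of them shared with the 45, and after quantile normalization 1 was called, 1110008P14Rik. Fits that left out 1 array called between 1 and 35 probes, not all of them among the 45, with 1 call without tumor-free replicate 2, tumor-free replicate 4 or PyMT-B6 replicate 4. The files name a gene for 36 of the 45 probes.

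**Figure D1:**
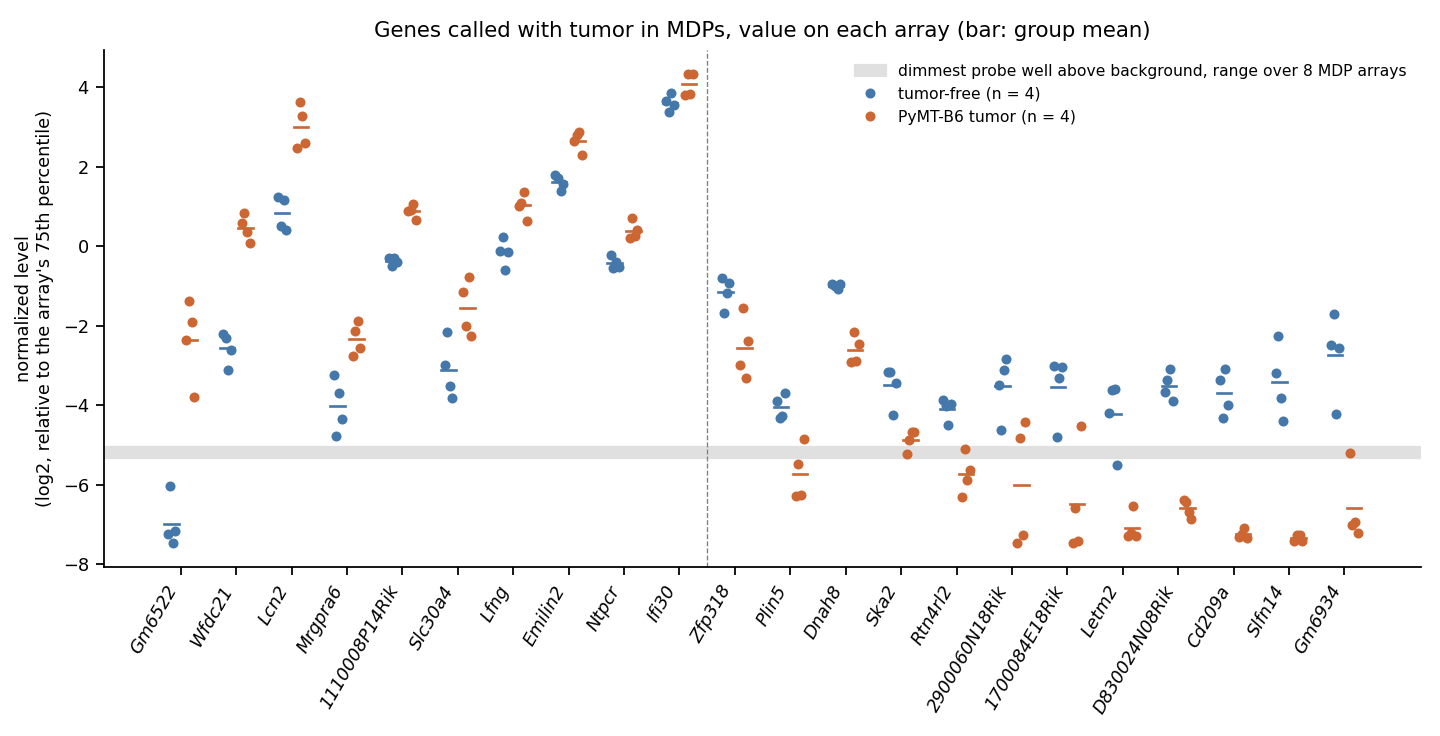
Normalized level (log2, relative to the 75th percentile of the array) of the 22 genes with the largest called rises and falls, on each tumor-free (blue) and PyMT-B6 (orange) MDP array, with short bars for group means (n = 4 each). The gray band marks the dimmest probes well above background, and of the 12 falls Dnah8 and Zfp318 have all 4 PyMT-B6 arrays above background, while of the 10 rises Gm6522 alone has tumor-free values under the band.

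**Figure D2:**
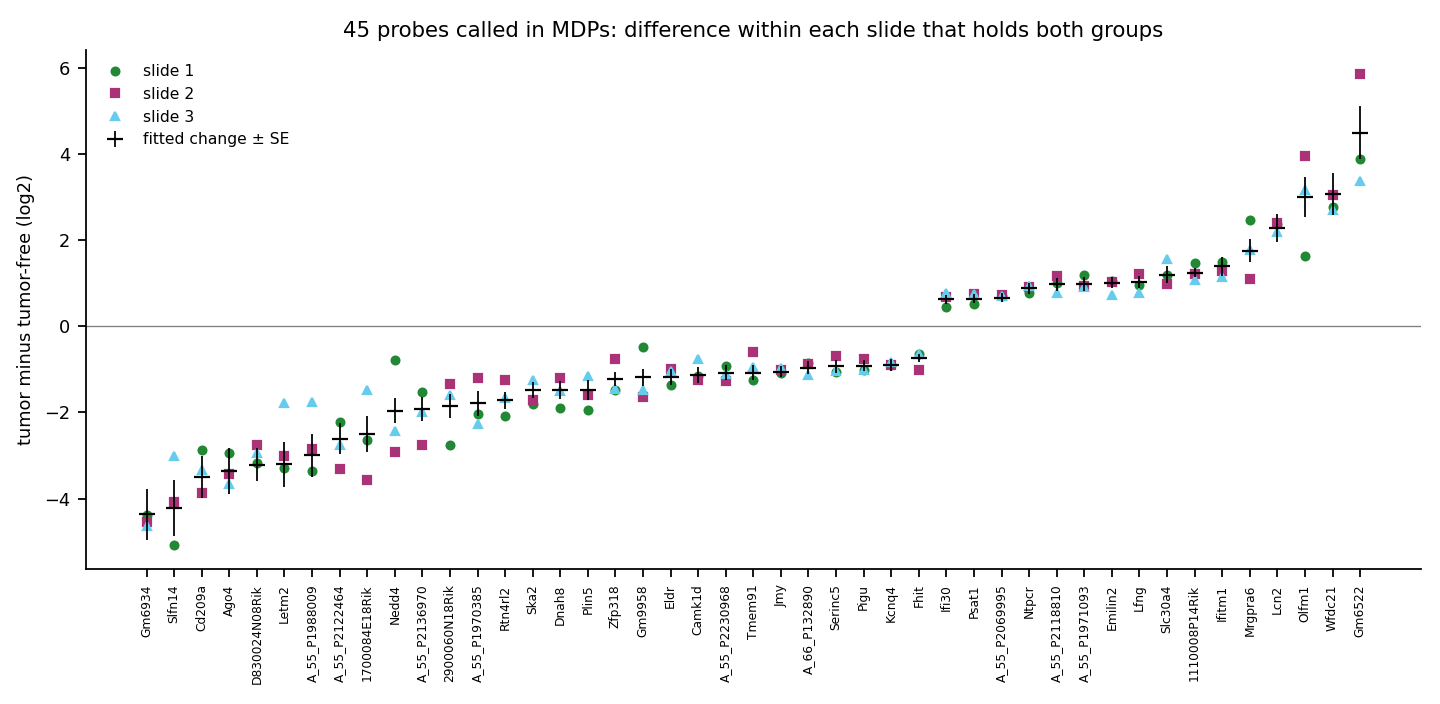
Difference of PyMT-B6 minus tumor-free levels (log2) for the 45 called probes within slide 1 (circles), slide 2 (squares) and slide 3 (triangles), with the fitted change and its SE (black). On each of the 3 slides the 16 rises lie above 0 and the 29 falls below it.

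The call that held most widely was 1110008P14Rik, a protein-coding gene known by its cDNA clone name. Its level was −0.29, −0.49, −0.30 and −0.41 in tumor-free replicates 2 to 5 and 0.89, 0.92, 1.06 and 0.66 in the PyMT-B6 replicates. Every tumor-bearing sample was above every tumor-free one, with a change of 1.24 ± 0.11 (SE, adjusted p = 0.004). It was called in all 8 fits that left out 1 array. Next to it on chromosome 2 in RefSeq lies Lcn2, which encodes lipocalin-2, a secondary granule protein that binds bacterial siderophores. Lcn2 read 1.24, 0.50, 1.16 and 0.42 without tumor and 2.48, 3.63, 3.28 and 2.60 with tumor. The groups were again apart, by 2.28 ± 0.32 (SE, adjusted p = 0.0365), and the differences within slides 1 to 3 were 2.38, 2.39 and 2.18. The gene on the other side of 1110008P14Rik, Ciz1, had a fitted change of −0.03 (adjusted p = 0.898). In CDPs both rose as well, 1110008P14Rik by 0.77 (adjusted p = 0.00427) and Lcn2 by 2.59 (adjusted p = 0.00326).

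The promoters of this pair are shown because the genes are neighbors on the same strand and rose together. Each run holds the 250 bases before the start of transcription and the first 10 after it, from RefSeq on build GRCm38.p6, with matches to the motifs searched in capitals (interferon response type GAAA followed after 2 bases of any kind by GAAA, ETS-IRF composite GGAA followed after 2 bases of any kind by GAAA, C/EBP TTGCNNAA, STAT TTCNNNGAA and PU.1 AGAGGAAGT, on both strands of the 300-base window that ends 50 bases after the start).
Lcn2 (chr2:32387730-32387989, minus strand): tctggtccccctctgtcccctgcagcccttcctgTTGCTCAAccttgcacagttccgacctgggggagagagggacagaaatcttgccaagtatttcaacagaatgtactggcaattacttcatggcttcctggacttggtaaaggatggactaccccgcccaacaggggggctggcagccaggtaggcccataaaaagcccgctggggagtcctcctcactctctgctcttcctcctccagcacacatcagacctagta
1110008P14Rik (chr2:32381906-32382165, minus strand): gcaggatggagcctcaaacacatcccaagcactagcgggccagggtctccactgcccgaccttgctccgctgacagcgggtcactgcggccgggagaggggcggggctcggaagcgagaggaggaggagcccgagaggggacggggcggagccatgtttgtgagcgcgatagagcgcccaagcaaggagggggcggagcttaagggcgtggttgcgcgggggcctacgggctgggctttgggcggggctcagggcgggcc
Lcn2 holds 1 C/EBP match, which begins at position −216 from the start, as 10.8% of 32817 promoters hold at least 1. The 1110008P14Rik window holds no match to any of these letters.

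Other rises included a second small secreted protein, a Notch modifier and enzymes. Wfdc21, which encodes a small whey acidic protein-type factor, read −2.20, −2.30, −3.11 and −2.60 without and 0.59, 0.84, 0.37 and 0.09 with tumor. This was a change of 3.08 ± 0.49 (SE, adjusted p = 0.047), the second largest rise. Emilin2, an extracellular matrix glycoprotein, went from 1.78, 1.72, 1.39 and 1.56 to 2.65, 2.80, 2.89 and 2.29. Lfng, the Lunatic fringe glycosyltransferase that modifies Notch receptors, went from −0.11, 0.23, −0.59 and −0.15 to 1.01, 1.099, 1.36 and 0.64. Both genes had separate groups, with changes of 1.02 ± 0.12 (SE, adjusted p = 0.0327) and 1.03 ± 0.14 (SE, adjusted p = 0.035). Further rises were those of the nucleoside triphosphatase Ntpcr (0.89), the zinc transporter Slc30a4 (1.19) and Ifi30 (0.62), a lysosomal thiol reductase of antigen processing. Ifi30 was among the 3 rises whose groups overlapped, with 3.67, 3.37, 3.86 and 3.54 without and 3.81, 4.34, 3.83 and 4.33 with tumor, and within slides 1 to 3 it was higher by 0.45, 0.68 and 0.78. The largest rise, of the predicted gene Gm6522, ran from −7.24, −6.02, −7.46 and −7.17 to −2.36, −1.38, −1.91 and −3.79. Its probe was above background on 0 tumor-free and 4 PyMT-B6 arrays, so the level was at least 7.14-fold higher with tumor (adjusted p = 0.035). Such a bound sets the mean of the bright group against, on each dim array, the higher of the probe's own level and the dimmest level well above background. Mrgpra6, a MAS-related G protein-coupled receptor, rose by 1.75 ± 0.27 (SE, adjusted p = 0.0468) in MDPs and had −0.02 in CDPs (adjusted p = 0.971), where its mean levels of −7.52 and −7.47 were at background. The difference did not pass (adjusted p = 0.512).

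For 7 further called genes, named after their values were seen, a brighter probe of the gene exists that was not called. Ifitm1, an interferon-induced membrane protein, rose by 1.40 ± 0.22 (SE, adjusted p = 0.047) by one probe, and the other gave 1.36 (adjusted p = 0.0611). The scanner files place the called Ifitm1 probe on chromosome 8 and the other on chromosome 7, and whether the called probe reads Ifitm1 was not tested. The secreted glycoprotein gene Olfm1 rose by 3.002 by a probe above background on 1 of 4 tumor-free arrays, where the brightest gave 0.20 (adjusted p = 0.423). For Psat1, of serine synthesis, the called and the brightest probe gave 0.64 and 0.42, for Fhit, a nucleotide hydrolase, −0.74 and −0.11, and for Pigu, of GPI anchor transfer, −0.91 and 0.41. The called probes of Ago4, an Argonaute protein, and of the ubiquitin ligase gene Nedd4 were above background on 0 PyMT-B6 arrays, with at least 3.48-fold and 1.25-fold lower levels (Nedd4 on 3 of 4 tumor-free arrays), where the brightest probes gave −3.15 and −0.84 (adjusted p = 0.116 and 0.14).

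The largest falls were of dim transcripts that dropped into background with tumor. Of the 29 called falls 12 had 0 PyMT-B6 arrays above background, and for those described here the size is given as a bound. In bulk samples such as these, fewer cells that carry a transcript and less of it per cell cannot be told apart. Cd209a, a mouse homolog of the DC-SIGN lectin and a marker of cDC2s and monocyte-derived DCs, read −3.36, −4.32, −3.09 and −3.99 without and −7.30, −7.23, −7.08 and −7.33 with tumor. All 4 tumor-free values were above background and all 4 tumor values were not, so the level was at least 2.69-fold lower with tumor (fitted change −3.50, adjusted p = 0.0365, two-sided exact permutation p = 0.0286, the smallest that 70 relabelings allow). A second Cd209a probe was near background in both groups and gave −0.78 (adjusted p = 0.696). In CDPs the called probe changed by −3.30 (adjusted p = 0.00572).

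The promoter of Cd209a is shown as that of the one gene of the cDC program that passed in MDPs, in the same form as above.
Cd209a (chr8:3748975-3749234, minus strand): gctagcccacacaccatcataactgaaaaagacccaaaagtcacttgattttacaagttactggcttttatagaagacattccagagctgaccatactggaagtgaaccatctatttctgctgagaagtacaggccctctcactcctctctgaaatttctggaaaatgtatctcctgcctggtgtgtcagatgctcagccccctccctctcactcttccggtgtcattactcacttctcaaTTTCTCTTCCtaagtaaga
It holds 1 ETS-IRF composite match on the opposite strand, whose first base lies at −9 from the start, a kind of site bound by PU.1 with IRF8 or IRF4. Such a match is found in 2.72% of promoters.

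Slfn14, a Schlafen-family ribosome-associated endonuclease of erythroid and platelet precursors, went from −3.18, −2.26, −3.82 and −4.40 to −7.42, −7.26, −7.27 and −7.41, at least 3.25-fold lower (adjusted p = 0.047). The erythroid marker list, of which Slfn14 is a member, had 1 of 14 members called, Slfn14 itself (0.106% of all probes fell). Its mean level ranged from −1.58 to −0.83 on tumor-free and from −2.03 to −1.75 on PyMT-B6 arrays, without overlap, with 8 of 14 genes lower on all 3 slides (21.1% of all genes). Its summed linear level, most of it from Hemgn, did overlap, from 48.0 to 82.7 on tumor-free and from 41.8 to 81.1 on PyMT-B6 arrays. The summed level of megakaryocyte and platelet markers ranged from 3.28 to 4.17 on tumor-free and from 1.34 to 3.03 on PyMT-B6 arrays, without overlap, while their mean log2 level did overlap, with PyMT-B6 replicate 5 at −2.55 and tumor-free replicate 5 at −2.77. The part of such cells in the Slfn14 value was not tested. The transcript Gm6934 went from −2.48, −1.69, −4.21 and −2.55 to −5.21, −7.02, −6.94 and −7.20, at least 5.22-fold lower (adjusted p = 0.035). Bounds for the clone-named D830024N08Rik, the mitochondrial membrane gene Letm2 and the Nogo receptor relative Rtn4rl2 were at least 3.06-fold, 1.86-fold and 2.05-fold lower, with Letm2 above background on 3 of the 4 tumor-free arrays. In CDPs these 3 had −0.32, 0.40 and 0.29, with adjusted p-values of 0.656, 0.683 and 0.377. Among falls measured in both groups, Dnah8, an axonemal dynein heavy chain, went from −0.94, −0.999, −1.08 and −0.95 to −2.90, −2.15, −2.87 and −2.46. The tumor-free values of Dnah8 lay close together and the tumor values below them, by −1.48 ± 0.21 (SE, adjusted p = 0.0365), and its other 2 probes gave −0.97 (adjusted p = 0.17) and −0.06 (adjusted p = 0.95). Zfp318, a nuclear zinc finger gene above background throughout, changed by −1.23 ± 0.17 (SE, adjusted p = 0.035) with overlapping groups, and its other 2 probes gave −0.51 (adjusted p = 0.3) and −0.33 (adjusted p = 0.48). The kinetochore gene Ska2 (−1.48), the lipid droplet gene Plin5 (−1.48) and the clone 1700084E18Rik (−2.50) were above background on 1 of 4 PyMT-B6 arrays and the clone 2900060N18Rik (−1.85) on 2, so that these fitted falls rest on values partly at background. The groups of both clones overlapped.

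Of 12 genes that the study names for the cDC or the granulocyte and monocyte program, 6 of each, only Cd209a passed in MDPs. The study named them from quantitative PCR (RT-qPCR) of sorted progenitors, MDPs among them, and not from these arrays. As they come from its own profiling of these progenitors, they are no independent evidence of a direction. It reports lower Irf8 transcript by RT-qPCR in cDC progenitors and lower IRF8 protein in MDPs, and the arrays do not measure protein. Irf8, the transcription factor required for cDC1s, read 4.15, 3.76, 4.42 and 4.10 in tumor-free and 3.65, 4.20, 3.63 and 4.43 in PyMT-B6 replicates 2 to 5. These groups overlapped, and the fitted change of 0.08 ± 0.10 (SE, adjusted p = 0.66) had a 95% interval from −0.13 to 0.30. It was −0.13 as a plain difference of means (two-sided exact permutation p = 0.571), and −0.24 in CDPs (adjusted p = 0.167). Values for the other cDC genes were −0.50 for Zbtb46, a cDC-restricted zinc finger factor, −0.77 for Spib, 0.12 for Batf3 and −0.06 for Bcl11a, with adjusted p-values from 0.337 to 0.861. Spib, an ETS factor of plasmacytoid DCs, was above background on 2 tumor-free and 0 PyMT-B6 arrays. Of the granulocyte and monocyte genes, Id1, an inhibitor of E proteins, read −2.91, −1.60, −2.24 and −2.29 without and −0.02, −0.74, 0.34 and −1.77 with tumor, with PyMT-B6 replicate 5 inside the tumor-free range. The change was 1.44 ± 0.31 (SE, adjusted p = 0.0946), and the two-sided exact permutation p was 0.0571. Cebpb had 0.58 ± 0.21 (SE, adjusted p = 0.19). Cebpa, the main factor of granulocyte commitment, Cebpe and Gfi1 had values of −0.04, −0.19 and 0.15. Csf3r, the GCSF receptor, had −0.10 ± 0.09 (SE, adjusted p = 0.558) at a high level (4.34 without and 4.08 with tumor).

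The first of 2 Irf8 promoter windows in RefSeq is shown beside that of Cd209a, since Irf8 is the member of this program that the study follows most closely.
Irf8 (chr8:120736108-120736367, plus strand): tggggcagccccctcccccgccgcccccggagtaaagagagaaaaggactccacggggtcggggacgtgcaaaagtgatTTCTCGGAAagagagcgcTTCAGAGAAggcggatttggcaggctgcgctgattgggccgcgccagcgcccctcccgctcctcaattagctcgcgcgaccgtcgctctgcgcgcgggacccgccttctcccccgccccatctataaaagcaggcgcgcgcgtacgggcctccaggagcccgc
It holds 2 STAT matches, which begin at −171 and −153 from the start, where 8.29% of promoters hold at least 1.

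No gene that defines MDPs passed the test. Of the 10, 0 were called, with a median change of −0.07. The receptor genes Kit, Flt3 and Csf1r had fitted changes of −0.16, −0.11 and −0.03, and Csf2ra, the GM-CSF receptor alpha chain, had −0.0050. Spi1 and the surface marker genes Cd34 and Cd93 had 0.28, −0.22 and −0.25. Csf2rb, the shared beta chain of the GM-CSF, IL-3 and IL-5 receptors, read 2.47, 2.27, 2.51 and 2.28 without and 3.06, 3.05, 2.82 and 2.96 with tumor. Its groups did not overlap, yet the change of 0.60 ± 0.12 (SE, adjusted p = 0.0833) missed the FDR. Cx3cr1, the fractalkine receptor, read 2.47, 2.61, 1.96 and 2.21 without and 2.22, 0.02, 1.21 and 1.41 with tumor, and 3 probes of it gave −1.29, −1.28 and −1.27 (adjusted p from 0.14 to 0.24).

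Most granule genes had higher values in MDPs with tumor, and 2 of them rose past the test. Neutrophil granules form in order, the primary ones in early granulocyte precursors and the secondary and tertiary ones later. The primary granule list holds 10 genes, among them Calr, counted also under MHC class I loading, and Ms4a3, a gene of precursors. All 10 had a positive change, where 46.8% of all genes did, and 0 passed. Their median was 0.32, against −0.03 over all genes, and within slides 1, 2 and 3 it was 0.37, 0.45 and 0.44. Their mean level was 3.31, 3.25, 3.36 and 3.24 in tumor-free replicates 2 to 5 and 3.59, 3.88, 3.63 and 3.71 in the PyMT-B6 replicates. The 4 tumor values lay above the 4 tumor-free ones, and 7 of 10 genes were higher within each of the 3 slides (20.7% of all genes). Their summed linear level did overlap, from 129.4 to 172.2 on tumor-free and from 148.5 to 210.4 on PyMT-B6 arrays. Ctsc, which encodes the protease that activates granule serine proteases, had 1.06 ± 0.19 (SE, adjusted p = 0.0683), Ms4a3, of granulocyte and monocyte precursors, had 0.72 ± 0.25 (SE, adjusted p = 0.174), and the granule protease gene Prss57 had 0.52 ± 0.18 (SE, adjusted p = 0.176), each with separate groups. The abundant Mpo and Elane, encoding myeloperoxidase and neutrophil elastase, had 0.14 and 0.18, and cathepsin G (Ctsg) 0.39. After quantile normalization 8 of the 10 were higher, with a median of 0.16.

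Among secondary and tertiary granule genes 19 of 22 were tested, 2 rose (Lcn2 and Wfdc21, where 0.0583% of all probes did) and 14 had a positive change (46.8% of all genes), with a median of 0.49. Chil3, the chitinase-like protein Ym1, read −1.21, −1.15, −0.57 and −2.56 without and 2.17, 2.51, 1.96 and 0.72 with tumor. It just missed the threshold at 3.23 ± 0.54 (SE, adjusted p = 0.0507) and passed in 6 of the alternative fits. Retnlg, a resistin-like secreted protein, had 2.80 ± 0.60 (SE, adjusted p = 0.0936) and S100a9, a calprotectin subunit, 2.38 ± 1.18 (SE, adjusted p = 0.299). S100a9 was spread within the tumor-free group, at 0.25, −0.28, −5.00 and −5.80, against −0.62, 0.64, 0.52 and −0.11 with tumor. The late granule genes Camp, Ngp and Ltf had values of −1.60, −0.83 and −0.34 (adjusted p from 0.488 to 0.82), opposite in sign to the called members. Markers of other cell types that these transcripts could come from were read on the same arrays. The summed level of 13 neutrophil markers, a list that shares Lcn2 and others with the granule genes, ranged from 19.3 to 30.2 on tumor-free and from 22.2 to 40.6 on PyMT-B6 arrays. Mmp9 and Itgb2l were not above background on any MDP array. The summed level of 9 eosinophil markers ranged from 1.14 to 4.84 on tumor-free and from 2.32 to 8.75 on PyMT-B6 arrays. Prg2, the eosinophil major basic protein, read −4.20, −4.72, −0.52 and −4.22 without and 0.77, 1.67, 0.20 and −1.29 with tumor, and Ear2, an eosinophil-associated ribonuclease, −5.11, −5.00, −0.21 and −7.33 and 1.14, 0.65, 0.04 and −2.74. Tumor-free replicate 4, the one MDP array on its slide, was high for both, and Ear2 was above background on 1 of 4 tumor-free arrays. The changes were 4.24 ± 0.81 (SE, adjusted p = 0.0754) and 4.41 ± 1.29 (SE, adjusted p = 0.14), the eosinophil receptor Ccr3 was not above background, and the part of such cells in the granule values was not tested.

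**Figure D3:**
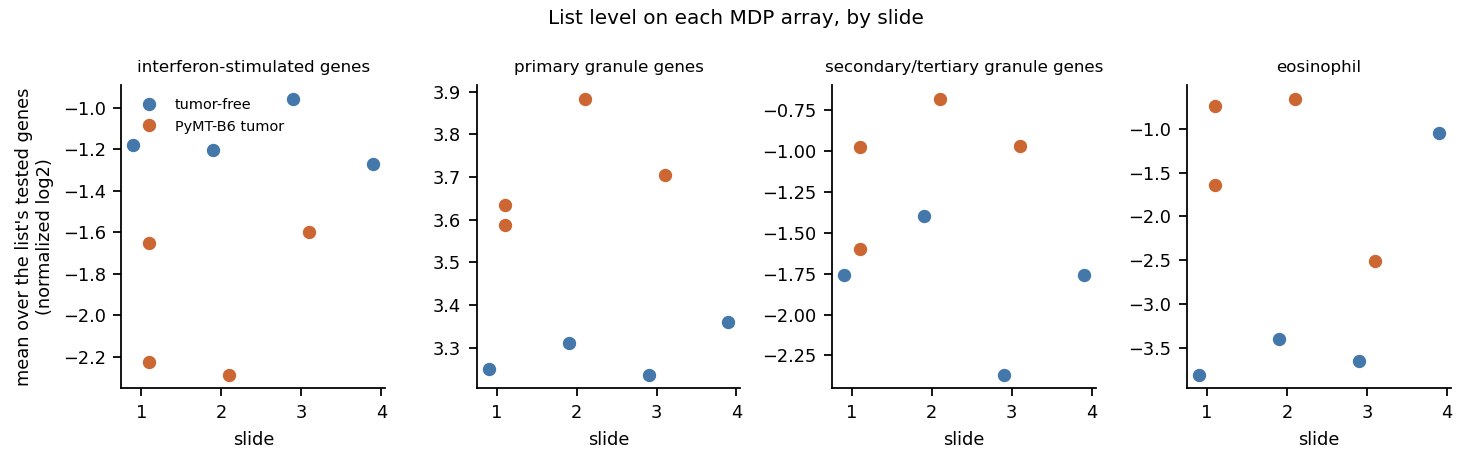
Mean normalized level (log2) over the tested genes of 4 lists on each MDP array, by slide, for tumor-free (blue) and PyMT-B6 (orange) samples. Interferon-stimulated genes are lower and primary granule genes higher with tumor on slides 1 to 3, and on slide 4 the tumor-free sample has an eosinophil level of −1.04, near the PyMT-B6 samples.

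Nearly all interferon-stimulated genes had lower values with tumor, and 0 of them passed the FDR. Of 37 tested, 36 had a negative change (53.2% of all genes did) and 27 an unadjusted p under 0.05 in that direction (10.4% of all genes), with 0 in the other (8.30% of all genes). The median was −0.62, and −0.56, −0.83 and −0.43 within slides 1, 2 and 3. Of the 37, 28 were lower within each of these slides, against 21.1% of all genes. The mean level of the list was −1.20, −1.18, −1.27 and −0.96 in tumor-free and −1.65, −2.29, −2.22 and −1.60 in PyMT-B6 replicates 2 to 5. Each tumor-bearing sample was thus below each tumor-free one. The smallest adjusted p was 0.0833, for Stat2 (−0.59), a subunit of the factor that interferon activates. Irf7, the amplifier of interferon production, read −2.72, −2.96, −2.40 and −3.05 without and −3.98, −5.89, −7.07 and −3.11 with tumor, and the antiviral GTPase gene Mx1 −2.44, −2.45, −2.78 and −2.80 and −3.11, −6.69, −4.03 and −3.54. Ifi27l2a, a small interferon-induced membrane protein, read 2.49, 1.93, 2.40 and 2.86 without and 1.01, −0.28, 0.58 and 1.82 with tumor. For these 3 the groups did not overlap, with changes of −2.14 ± 0.65 (SE, adjusted p = 0.147), −1.96 ± 0.57 (SE, adjusted p = 0.14) and −1.57 ± 0.34 (SE, adjusted p = 0.0951). Irf7 was above background on 2 of 4 PyMT-B6 arrays and Mx1 on 3, so that their changes rest on values partly at background. Gbp3 was the member with a positive change, 0.16. Across the other fits, the median of the list lay between −0.73 and −0.53. With the slide as a random block 2 members were called lower, where 203 of all 27431 probes were called in either direction. Ifit3, an antiviral protein, and the chemokine Cxcl10 had −1.67 and −1.73, both near background. In CDPs 35 of 37 were lower, 9 of them called, with a median of −0.68. Of all probes 4.56% were called in CDPs, in either direction. The rise of Ifi30, which interferon can induce and which is not on the list, ran the other way. So did that of Ifitm1, also interferon-induced and not on the list, with 1.40 by its called probe. Whether that probe reads Ifitm1 was not tested.

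Antigen presentation and pattern recognition genes showed single calls. In the MHC class II list 1 of 12 genes rose, Ifi30 (0.0583% of all probes rose), and 9 had negative changes (53.2% of all genes), with a median of −0.30. The mean level of the list was 1.72, 1.34, 1.69 and 1.51 in tumor-free and 1.17, 1.11, 1.24 and 1.11 in PyMT-B6 replicates 2 to 5, without overlap. Its summed linear level did overlap, from 50.8 to 65.1 on tumor-free and from 50.1 to 65.9 on PyMT-B6 arrays. Of the 12 genes 4 were lower on all 3 slides (21.1% of all genes), and the median in CDPs was 0.05. H2-Ob, an inhibitor of peptide loading, read 0.19, 0.12, −0.68 and −0.13 without and −0.96, −0.93, −1.23 and −0.68 with tumor, a change of −0.90 ± 0.40 (SE, adjusted p = 0.261). The class II chain genes H2-Aa and H2-Eb1 varied more, with −1.27 ± 0.78 (SE, adjusted p = 0.39) and −1.23 ± 0.59 (SE, adjusted p = 0.283), and the invariant chain gene Cd74 had −0.79. For MHC class I loading 0 of 15 passed, and the median was 0.02, with Pdia3 (0.38), Calr (0.29) and H2-D1 (0.28) positive and Tapbp (−0.23) negative. Of 21 C-type lectins Cd209a alone was called (0.106% of all probes fell), and 15 had negative changes (53.2% of all genes). Their median was −0.31, but 0.02, −0.33 and −0.03 within slides 1, 2 and 3. After quantile normalization it was −0.16, and in CDPs 0.12. Clec9a, a receptor for dead cells on cDC1s and their precursors, had the largest negative change. It read −1.28, −1.05, −1.42 and −0.60 without and −2.65, −7.25, −7.02 and −2.51 with tumor, with PyMT-B6 replicates 3 and 4 at background and replicates 2 and 5 above it. The change was −3.88 ± 0.96 (SE, adjusted p = 0.113). Clec4n and Clec12a had −1.95 and −1.38. Toll-like receptors and co-receptors had 0 of 16 called (median −0.02), with Tlr12 at −1.20 (adjusted p = 0.164) and the adaptor Myd88 at 0.97 (adjusted p = 0.0841).

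Cytokine signaling lists held 0 calls. Of 20 genes of the GCSF and STAT3 pathway 12 had positive changes (median 0.12). Pim1, a kinase gene induced by STAT3 and STAT5, read 1.08, 0.70, 0.81 and 0.93 without and 2.31, 3.20, 2.92 and 1.59 with tumor. Its groups did not overlap and the change was 1.63 ± 0.29 (SE, adjusted p = 0.0649). Bcl3 and the decoy receptor Il1r2 had 1.13 and 1.69, and Cish, a feedback inhibitor of STAT5, had −2.01 ± 0.58 (SE, adjusted p = 0.14). Cish was above background on 2 of 4 PyMT-B6 arrays. It read −4.64, −3.36, −4.40 and −3.85 without and −4.42, −7.32, −2.70 and −7.23 with tumor, so that the groups overlapped. Of 18 cytokines and chemokines tested, 16 had negative changes (53.2% of all genes did). The median was −0.39, and −0.12, −0.59 and −0.45 within slides 1, 2 and 3. The chemokine genes Ccl3 (−2.03) and Cxcl10 (−1.73), Il12a (−1.53) and Csf1 (−1.08), all dim, led them. Ccl3 and Csf1 were above background on 2 of 4 PyMT-B6 arrays and Cxcl10 and Il12a on 1, and the groups of each overlapped. Of 16 growth factor receptors 5 were positive (median −0.08), Csf2rb and its relative Csf2rb2 (0.58) most, with Il10ra at −0.82 and Epor, near background, at 0.50. Immediate-early genes had changes of both signs. Klf2, a factor of quiescence, had 1.75, while Egr2, Btg2 and Dusp1 had −1.54, −1.34 and −0.97 (0 of 21 called, median −0.19). Egr2 was above background on 2 of 4 PyMT-B6 arrays. Its PyMT-B6 replicates 2 and 4 read −2.36 and −1.82, above the tumor-free values of −4.34 to −2.39.

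Most metabolic and proliferation genes had small positive changes, and 0 were called. Of 23 glycolysis and hypoxia genes 22 had positive changes (46.8% of all genes did) with a median of 0.26. Tpi1, Eno1 and Pfkp, enzymes of glycolysis, had 0.40, 0.52 and 0.44, and the stress gene Ddit4 had 1.24 (adjusted p = 0.166). A second Pfkp probe, above background on every MDP array, gave 0.02 (adjusted p = 0.953). After quantile normalization 18 of 23 were positive, with a median of 0.14. Of 36 cell cycle genes 25 were positive (median 0.09), with Ccne1 (0.49), Cdc45 (0.47) and Ccnb1 (0.44) highest and Tyms (−0.76) lowest. Tumor-free replicate 2 read −0.58 for Tyms and the other tumor-free arrays −3.43 to −2.88. Of 23 genes of cholesterol and fatty acid synthesis 17 were positive (median 0.07), yet the median was 0.44 within slide 1 and −0.26 within slide 2. Lss, lanosterol synthase, had 1.50 ± 0.59 (SE, adjusted p = 0.212), and Hmgcs1, Fasn and Nsdhl had 0.29, 0.35 and 0.32. Dimmer probes of Hmgcs1 and Nsdhl, partly at background, gave −0.02 and −0.76. Histone and DNA modifying enzymes had 27 of 40 negative and 0 called (median −0.08). Among them were the demethylase gene Kdm5b (−1.24), Hdac9 (−0.76), Kmt2a (−0.52) and Kat7 (1.02), with adjusted p-values from 0.123 to 0.375. The value of Kat7 rests on tumor-free replicate 3, at −1.06 where the other tumor-free arrays read 2.20 to 2.69.

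**Figure D4:**
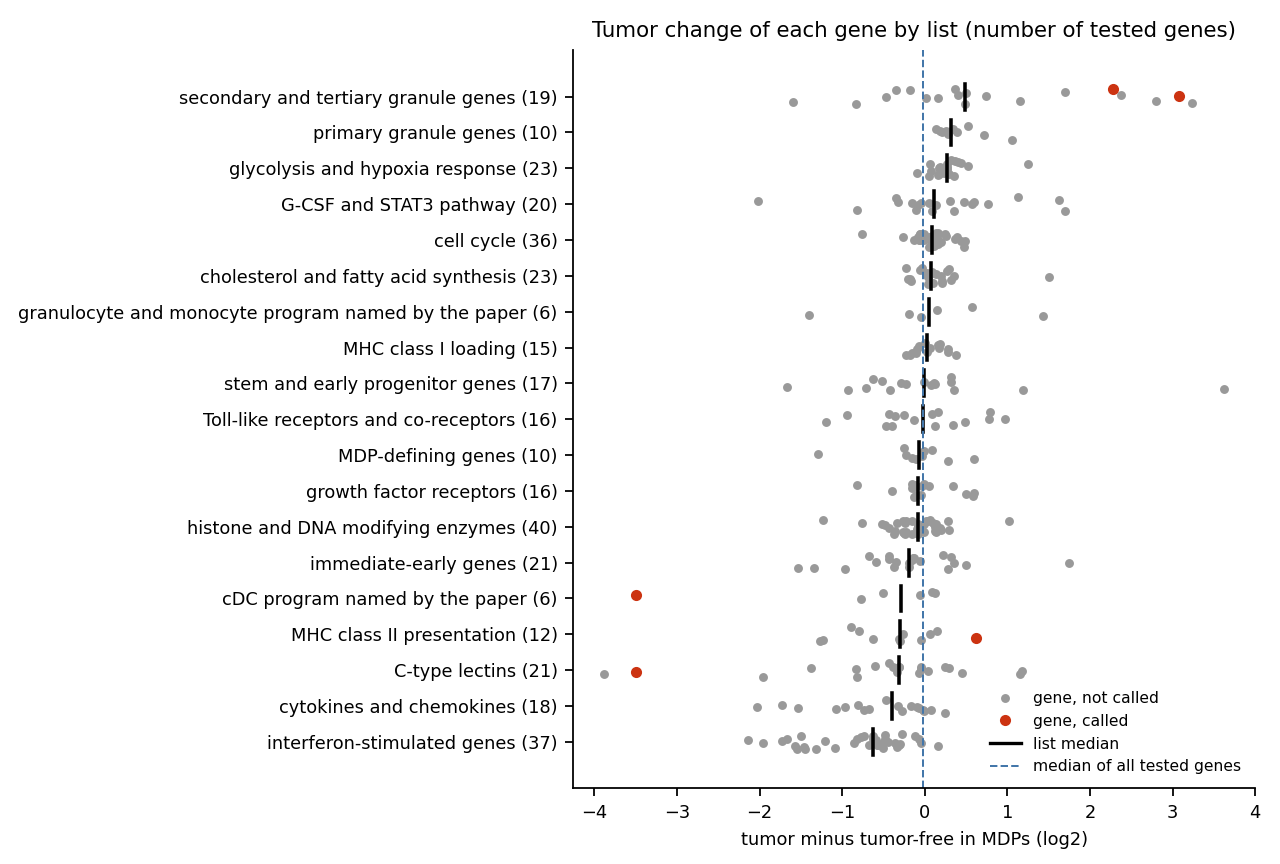
Fitted change with tumor in MDPs (log2) of each tested gene in 19 lists, called genes in red, list medians as black bars and the median of all tested genes as a dashed line. The interferon-stimulated list has the lowest median (−0.62) and the secondary and tertiary granule list the highest (0.49), and the called genes are Lcn2, Wfdc21, Ifi30 and, in 2 lists, Cd209a.

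The same tumor gave 1251 called probes in CDPs (4.56%), and 23 of the 45 MDP calls were among them. The tumor-free and tumor-bearing CDP arrays are separate from the MDP arrays, but all share the 4 slides and a single estimate of the spread. Of the 45, 40 had the same sign in CDPs. The share of all probes with the same sign is not given here, and both changes come from the same fit. This count is therefore no separate support. The test of the difference itself passed for 2 probes (0.00729%), neither of them above background on any MDP array, and for 0 when only probes above background in an MDP group were kept (1479 probes had an unadjusted p under 0.05 in the main test). Both values therefore set a CDP change against background in MDPs. A probe of Vcan, the matrix proteoglycan versican of monocytes, had 0.31 in MDPs and 4.74 in CDPs (difference −4.43 ± 0.48, adjusted p = 0.02). Its brighter probe gave 0.71 in MDPs and 3.74 in CDPs, a difference that did not pass (adjusted p = 0.927). Cd209e, a relative of Cd209a, had −0.04 in MDPs and −3.69 in CDPs (difference 3.65 ± 0.36, adjusted p = 0.0189). For the MDP calls Letm2 and D830024N08Rik, the difference did not pass (adjusted p = 0.475 and 0.398).

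**Figure D5:**
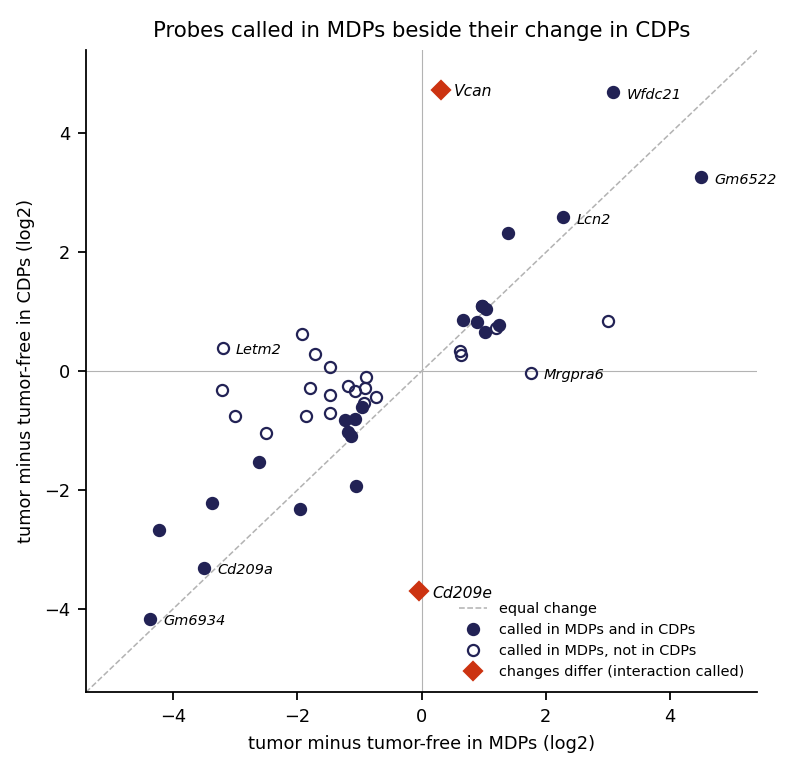
Fitted tumor change (log2) in CDPs against that in MDPs for the 45 probes called in MDPs, filled where also called in CDPs (23), with the 2 probes whose changes differ in red and a dashed line of equal change. Vcan and Cd209e lie near 0 in MDPs and at 4.74 and −3.69 in CDPs.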

How the data were processed

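Total RNA of sorted MDPs and CDPs was hybridized to 1-color (Cy5) mouse Agilent arrays. Per the file headers, the authors extracted spot intensities with Agilent Feature Extraction 11.5.1.1 (background subtraction and detrending within each array, build mm9), with flags of 0 or 1 for spots above background or off in shape. The deposited value table holds log2 values of 26793 probes, nearly equal in distribution across arrays (medians 10.2 to 10.3), whose selection is not given in the sources used here. The submitters' processing notes name limma. The number of arrays limits the precision.

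Processed signals without control spots (1377) and outlier spots (182 to 289 per array) were averaged per probe, taken to log2 and set to the array's 75th percentile. Probes above background on at least 3 of 4 arrays of at least 1 of the 4 groups were kept. All 16 arrays were fitted in limma 3.58.1 (R 4.3.3) with group and slide, Benjamini-Hochberg adjustment over 27431 probes, and calls at an FDR under 0.05 with a fold change above 1.5. The tumor change in MDPs and its difference from that in CDPs were tested. A gene was taken by its brightest tested probe. Named were the study's program genes, MDP-defining genes, up to 12 of the largest called rises and falls, called members and up to 4 largest changes per list, and genes whose change differed from CDPs. The comparison and the 32 lists (19 of pathways, 13 of cell type markers) were chosen with earlier results of these data known. The steps were tested on simulated data. Alternatives were the slide and replicate blocks, background correction, scaling, probe filters, the deposited table, the arrays fitted, each array left out, the threshold and the methods' t-test. A probe's gene is that of the scanner files, updated through RefSeq where its transcript matched (28740 probes), and RefSeq promoters were available for 25 of 34 genes looked up. The result of 1 gene of the lists is not reported here.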

Additional observations from a re-analysis of the deposited data

Results flagged for a closer look

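Of 210 groups of 4 arrays checked for the genes named, 17 held 1 array that stood apart from the other 3 by the gap test of Dixon, where chance gives about 1 group in 20. Levels are normalized log2 values. Arrays that stood apart were those of Gm6934 in PyMT-B6 replicate 2 (−5.21, others −7.20 to −6.94), Letm2 in PyMT-B6 replicate 4 (−6.53, others −7.28 to −7.21) and Cebpb in tumor-free replicate 3 (2.40, others 1.83 to 1.89). Others were Flt3 in PyMT-B6 replicate 4 (0.40, others 1.40 to 1.58), Ifit3 in PyMT-B6 replicate 5 (−6.47, others −7.41 to −7.26) and Il1r2 in PyMT-B6 replicate 3 (−0.30, others −2.08 to −1.83). A gap was also found for Bcl3 in tumor-free replicate 4 (−2.02, others −1.90 to −1.88), Cdc45 in tumor-free replicate 2 (0.97, others 0.71 to 0.75) and Ddit4 in PyMT-B6 replicate 5 (−0.72, others 0.11 to 0.21). Further arrays were those of Pfkp in tumor-free replicate 3 (1.34, others 1.76 to 1.84), Epor in tumor-free replicate 3 (−6.91, others −3.85 to −3.54) and Tlr12 in tumor-free replicate 4 (−0.84, others 0.02 to 0.15). The Toll-like receptor and histone enzyme genes gave Tlr11 in tumor-free replicate 5 (−3.94, others −7.56 to −7.31), Tlr5 in tumor-free replicate 2 (−5.71, others −7.53 to −7.37) and Kat7 in tumor-free replicate 3 (−1.06, others 2.20 to 2.69). The last were Hdac9 in tumor-free replicate 5 (−1.55, others −2.06 to −2.02) and Procr in PyMT-B6 replicate 3 (−7.30, others −3.48 to −3.32). Of these, Gm6934 and Letm2 are called falls, and each stayed under background on the array that stood apart. Tumor-free replicate 3 held 4 of the gaps and lies on slide 1.

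The limma interaction test of the tumor change in MDPs minus that in CDPs passed for Vcan (−4.43 ± 0.48) and Cd209e (3.65 ± 0.36) with adjusted p-values of 0.02 and 0.0189. Both probes were at background on all 8 MDP arrays, so their MDP changes are not measured, and 0 probes passed when only probes above background in an MDP group were kept.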

How the results depend on the processing

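Against 45 calls in MDPs and 2 calls of a difference from CDPs, the counts were 17 and 4 without the slide block, 203 and 10 with the slide as a random block, 1 and 0 after quantile normalization, and 1 and 0 with the deposited value table. They were 30 and 0 with normexp background correction, 29 and 2 after scaling to the median, 1 and 2 with no filter on dim probes, 49 and 0 with the filter on MDP groups, and 52 and 0 with the filter on all 8 MDP arrays. At an FDR under 0.1 with the fold threshold 216 MDP probes passed, and of the 45 main calls 39 passed this looser threshold after quantile normalization and 45 with no filter. Leaving out 1 array gave from 1 to 35 MDP calls and from 0 to 4 of the difference. It gave 1 call without tumor-free replicate 2 or 4 or PyMT-B6 replicate 4, in each case 1 of the 45. Of 3 calls without tumor-free replicate 5, 1 was among the 45, of 5 without PyMT-B6 replicate 3, 3 were, of 14 without PyMT-B6 replicate 5 and of 15 without tumor-free replicate 3, 5 were, and of 35 without PyMT-B6 replicate 2, 22 were. With slide 1 left out, an alternative chosen after seeing the data, 11 and 1 were called. A limma fit to the 8 MDP arrays alone called 5 without the slide and 0 with it (3457 at an unadjusted p under 0.05). The methods' t-test passed 1016 probes unadjusted and 1 after Benjamini-Hochberg adjustment. The replicate numbers were not taken as pairs, since deviations of same-numbered arrays correlated at −0.10, −0.56, −0.48 and 0.44 for replicates 2 to 5 and only replicate 5 correlated best with its own number, on a shared slide. As the other same-numbered arrays lay on different slides, pairing and slide cannot be told apart in this check. With the replicate number as a block 3 MDP probes were called beside the slide block, and 10 and 4 without it. Of 2226 values of named genes under alternatives, 1868 kept their side of the threshold, 340 lost a call, 18 gained one and 0 called values turned in sign. The cause of these changes was not tested. The slide with 1 MDP array adds to the tumor change only through the CDP arrays beside it. Signal at background limits 13 calls to bounds.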

Other observations

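Among stem and early progenitor genes 0 of 17 were called, with 8 positive changes and a median of −0.01. Spink2, a serine protease inhibitor of early progenitors, read −7.32, −4.47, −5.69 and −7.32 in tumor-free and −2.62, −1.57, −3.41 and −2.81 in PyMT-B6 replicates 2 to 5. Spink2 was above background on 1 of 4 tumor-free and 4 of 4 PyMT-B6 arrays, so that the fitted change rests on a group mostly at background. The groups did not overlap, and that change was 3.63 ± 0.63 (SE, adjusted p = 0.0603). The ligand gene Angpt1, the protein C receptor gene Procr and Hoxa5 had changes of −1.67, 1.19 and −0.93, with adjusted p-values of 0.223, 0.432 and 0.408.

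Markers of the megakaryocyte and platelet lineage had 8 of 10 negative changes, a median of −0.59 and 0 calls, and their summed linear level ranged from 3.28 to 4.17 on tumor-free and from 1.34 to 3.03 on PyMT-B6 arrays, so that the groups did not overlap. Erythroid markers had 9 of 14 negative changes (median −0.46), with Slfn14 called. Eosinophil markers had 6 of 8 positive (median 1.53) and 0 called, among them Ear6 (3.70), Ear1 (1.80) and Epx (1.26). For monocyte and macrophage markers 0 of 20 were called (median 0.02), for neutrophil markers 1 of 11, Lcn2 (median 0.05), and for mast cell and basophil markers 0 of 6 (median −0.02). The DC lists had 0 of 8 cDC1 markers called (median 0.03), 1 of 13 cDC2 markers, Cd209a (median −0.03), and 0 of 13 plasmacytoid DC markers (median −0.20). The called markers Lcn2, Cd209a and Slfn14 are calls already described, where 0.0583% of all probes were called higher and 0.106% lower. The lymphoid lists had 0 of 9 early lymphoid (median −0.36), 0 of 7 B cell (median −0.18) and 0 of 13 T and NK cell markers called (median −0.20). Of mammary tumor epithelium markers 0 of 11 were called (median −0.19), beside a median of −0.03 over all tested genes.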
